A study of Mus musculus with 32 samples.

Results

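The caspases and their regulators were followed in the developing mouse retina through 7 genes: Casp1, Casp2, Casp6, Casp8, Casp9, Apaf1 and Xiap. They were chosen by gene symbol, and all 14 probe sets annotated to them, of 22626 measured, were taken without a filter on level. A probe set is a group of short array probes read out as 1 value. Casp1, Casp2, Casp6 and Casp8 had 1 probe set each, Casp9 and Apaf1 had 2, and Xiap had 6, and none of the 14 lists a further gene.

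Retinas came from wt mice and from rd1 mice, on a C57BL/6 background, at postnatal day 2 (P2), P4, P6 and P8. The rd1 animals were homozygous for the linked retinal degeneration 1 and light ear mutations, so the groups differ at both loci. The rd1 mutation lies in Pde6b, the gene of a catalytic subunit of the rod phosphodiesterase that breaks down cGMP. Each of the 8 groups had 4 arrays, 32 in all, each hybridized with RNA from pooled whole retinas, and values are on the log2 scale.

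Caspases are proteases that are made as inactive precursors. In the intrinsic pathway, cytochrome c released from mitochondria binds Apaf1, which assembles into the apoptosome and activates the initiator Casp9. In the extrinsic pathway, death receptors recruit and activate Casp8. Both initiators act on executioner caspases, of which Casp6 is 1, and Xiap binds and blocks some, not all, of the active caspases. The first postnatal week is the time when the last mouse retinal progenitors leave the cell cycle, rods mature and surplus neurons die. In rd1 retinas rods die after the ages sampled here.

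Some arrays bear on what follows. Array medians lay between 6.54 and 6.76, and arrays of 1 group correlated at 0.981 to 0.998. Pde6b was lower in rd1 than in wt without overlap at P4, P6 and P8. At P2 it ran from 6.96 to 9.76 on arrays labelled wt and from 6.84 to 9.24 on arrays labelled rd1. Within these ranges it formed a low and a high set that cut across the labels. The low set, 6.84 to 7.19, was wt replicates 1 and 2 and rd1 replicates 1 and 4. The high set, 9.18 to 9.76, was wt replicates 3 and 4 and rd1 replicates 2 and 3. With rd1 the lower genotype, as at later ages, Pde6b went against the labels of wt replicates 1 and 2 and rd1 replicates 2 and 3. Whether the P2 labels are right was not tested. They were kept as given, and every comparison with P2 rests on them. The arrays labelled rd1 P2 replicates 1 and 4 had a 5′ minus 3′ difference of the Gapdh control probe sets, a measure of RNA integrity, of -1.54 and -1.57, against -0.74 to -0.04 on the other 30 arrays. On rd1 P8 replicate 4 the mean of 13 lens genes was 11.5, against 7.57 to 7.78 on the other 3 arrays of that group. Control probe sets for bacterial transcripts, which stand for background, read 1.75 to 4.89.

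Over the 32 arrays the mean log2 value of the brightest probe set was 11.03 for Xiap, 9.57 for Casp2, 8.41 for Apaf1, 8.29 for Casp6 and 7.74 for Casp9, all clear of background. Casp8, at 4.43, and Casp1, at 3.15, lay in the range of the background controls. Probes differ in brightness, so these means do not order the transcripts by abundance.

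The data showed a developmental course in most of the members and no difference between the genotypes that passed the test. From P2 to P8 Casp2, Casp6 and Apaf1 fell in both genotypes, as did Casp8, whose arrays of P8 lay within the background range, while Xiap rose in wt by 5 of its 6 probe sets. In wt 11 of the 14 probe sets changed from P2 to P8, 5 up and 6 down, where 35.6% of all probe sets did. In rd1 7 changed, 3 up and 4 down, where 33% of all did. The median change of the 14 was -0.14 in wt, against -0.06 over all probe sets, and -0.11 in rd1, against 0.02. Xiap alone supplies 6 of the 14 and all 5 of the wt rises. With only the brightest probe set of each of the 7 genes, the median was -0.77 in wt, with 1 up and 4 down. In rd1 it was -0.60, with 0 up and 4 down. A change was called when the adjusted p of limma, with Benjamini-Hochberg adjustment over all 22626 probe sets, was under 0.05.

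Casp2, Casp6 and Apaf1 were the members that lost the most signal and were well above background at every age. Their promoters are shown here because they fell together, and because the probe sets most like Casp2 in their course were those of genes of dividing cells. Each is RefSeq sequence of GRCm38.p6, 300 bases on the strand of the gene, from 250 bases before an annotated start to 50 after it. Capitals mark 3 motifs on either strand: the E2F site (TTTCCCGC, TTTGGCGC, TTTCGCGC or TTTGCCGC), the CCAAT box (CCAAT) and the GC box (GGGCGG).
Casp2, chr6:42264735-42265034, plus strand: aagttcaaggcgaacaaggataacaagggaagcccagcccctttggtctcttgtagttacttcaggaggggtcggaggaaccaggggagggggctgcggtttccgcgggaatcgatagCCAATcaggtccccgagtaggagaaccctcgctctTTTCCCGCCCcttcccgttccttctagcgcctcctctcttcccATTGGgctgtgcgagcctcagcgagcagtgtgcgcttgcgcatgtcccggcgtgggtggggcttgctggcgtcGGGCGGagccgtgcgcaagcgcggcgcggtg
Casp6, chr3:129901165-129901464, plus strand: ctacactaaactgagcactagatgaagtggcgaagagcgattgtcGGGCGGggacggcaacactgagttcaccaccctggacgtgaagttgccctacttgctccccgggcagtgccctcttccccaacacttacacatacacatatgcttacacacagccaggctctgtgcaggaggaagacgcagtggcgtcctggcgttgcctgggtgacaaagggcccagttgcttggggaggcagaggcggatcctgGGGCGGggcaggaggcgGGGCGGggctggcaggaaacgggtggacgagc
Apaf1, chr10:91082694-91082993, minus strand: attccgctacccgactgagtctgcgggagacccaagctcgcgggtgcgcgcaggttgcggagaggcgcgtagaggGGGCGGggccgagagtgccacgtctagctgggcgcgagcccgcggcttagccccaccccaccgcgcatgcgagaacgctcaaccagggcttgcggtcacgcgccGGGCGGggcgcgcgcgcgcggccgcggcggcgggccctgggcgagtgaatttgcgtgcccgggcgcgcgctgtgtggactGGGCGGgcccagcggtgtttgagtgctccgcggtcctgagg

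The Casp2 window held 1 E2F match, TTTCCCGC, which began 97 bases before the start and overlapped a reverse GC box. It also held CCAAT boxes 132 and 54 bases before the start, the second of them in reverse. An E2F match is in 2.26% of all 32851 promoter windows, and none was found in the windows of the other 6 members. CCAAT is in 37.4% of windows and, among the members, in those of Casp2 and Casp8. A GC box is in 35.7% of windows. There were 3 in Casp6, 3 in Apaf1 and 2 in Casp2, but also 4 in Casp9, which was back near its P2 level by P8, and 2 in each of 2 Xiap windows. These are matches of letters only, and binding was not measured.

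Casp2 encodes a caspase that is activated on the PIDDosome and is known for its response to failed cell division. On the arrays labelled wt P2 its values were 10.15, 10.14, 9.96 and 10.03, and in wt at P4 they were 10.12, 10.28, 9.84 and 10.01. In wt at P6 they were 9.23, 8.94, 9.21 and 9.02, and at P8 they were 8.91, 8.94, 8.85 and 8.33. The wt level was therefore flat to P4 and dropped below all earlier arrays by P6. On the arrays labelled rd1 P2 the values were 10.08, 10.20, 10.20 and 10.20, and in rd1 at P4 they were 10.22, 9.92, 9.47 and 9.72. In rd1 at P6 they were 9.58, 9.41, 9.74 and 9.75, and at P8 they were 9.13, 8.82, 9.10 and 8.66. All 4 rd1 arrays of P6 lay above all 4 wt arrays of that age, and 3 of them within the range of rd1 at P4.

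From P2 to P8 Casp2 fell by 1.31 in wt (SE 0.14, limma adjusted p = 1.25e-08), a 2.49-fold change, and by 1.24 in rd1 (SE 0.14, adjusted p = 4.00e-08). In wt it fell by 0.96 from P4 to P6 (adjusted p = 1.85e-05), a step in which 6 of the 14 probe sets changed and 11.9% of all did. In rd1 the change over that step was -0.21 (adjusted p = 0.336), where 3 of the 14 were called and 7.09% of all. Over the step from P6 to P8 Casp2 fell by 0.69 in rd1 (adjusted p = 0.000849), where 7 of the 14 were called and 18.3% of all. The same step in wt gave -0.34 (adjusted p = 0.104), where 5 of the 14 were called and 15.6% of all. In a bulk sample, fewer cells of a type and less RNA per cell cannot be told apart.

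At P6 Casp2 was 0.52 higher in rd1 than in wt (95% confidence interval 0.23 to 0.81), a 1.43-fold difference, with groups of 4 arrays that did not overlap. Its exact two-sided permutation p was 0.0286, the smallest that 4 arrays against 4 allow, and its limma p was 0.00106 before adjustment and 0.154 after, so the difference was not called. It was the only member without overlap at P6, where 4.82% of all probe sets do not overlap. The difference was -0.23 at P4 and 0.17 at P8, with intervals that include 0. The F test of whether the genotype difference varied with age gave an adjusted p of 0.532.

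At P6 the mitotic marker genes differed between the genotypes in the direction of Casp2, and the rod markers in the other direction. The mean of the mitotic markers over 21 of 22 listed genes ran from 5.17 to 5.83 in wt at P6 and from 6.20 to 7.07 in rd1 at P6. By the same test 8 of the 21 were higher in rd1, where 0.208% of all probe sets were called. The mean had been 9.72 to 9.96 on the arrays labelled wt P2 and 9.84 to 10.1 on those labelled rd1 P2. At P4 it was 7.69 to 9.09 in wt and 8.23 to 9.38 in rd1. From P2 to P4 in wt 16 of the 21 were called lower, where 16.8% of all probe sets were called, while Casp2 changed by -0.01. The mitotic genes and Casp2 therefore did not move together over that step. All 21 fell by P8 in both genotypes, where 35.6% of all probe sets changed in wt and 33% in rd1. At P8 the mean was 4.22 to 4.55 in wt, within the background range, and 4.45 to 5.39 in rd1, partly within it. The probe sets of other genes with a course most like that of Casp2 over the 32 arrays were those of Myb (Pearson r = 0.969), a transcription factor of proliferating cells, and Top2a (r = 0.968), the topoisomerase of dividing cells, which is 1 of the mitotic markers. The mean of 16 of 18 listed rod markers also separated the genotypes at P6, at 11.4 to 11.8 in wt and 10.7 to 10.9 in rd1. None of the 16 was higher in rd1, 1 was called lower, and their median difference was -0.55. The 16 include Pde6b, the gene mutated in rd1, which at P6 read 13.3 to 13.4 in wt and 10.5 to 10.9 in rd1. The part of the mitotic genes and of the rod genes in the Casp2 difference at P6 was not tested. In the plot of Casp2 against these genes, the wt and rd1 arrays of P6 form separate groups on both axes.

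**Figure D1:**
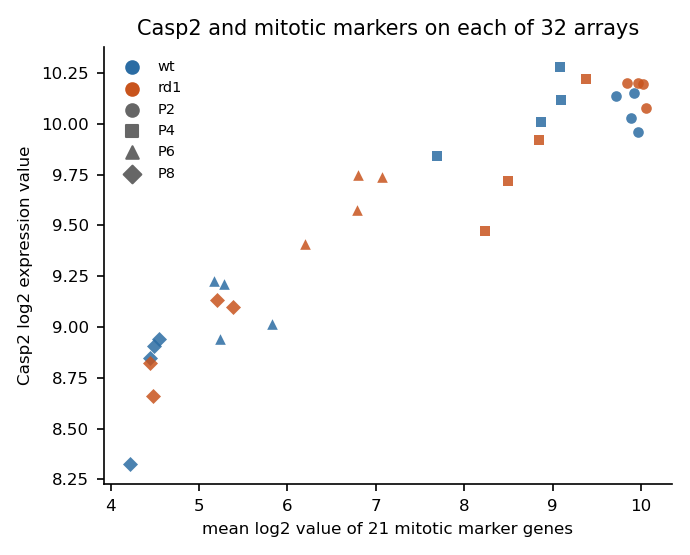
Casp2 log2 value (vertical axis) against the mean log2 value of 21 mitotic marker genes (horizontal axis) on each of the 32 arrays, with colour for genotype and symbol for age. The rd1 arrays of P6 (6.20 to 7.07 on the horizontal axis) lie to the right of and above the wt arrays of P6 (5.17 to 5.83).

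Casp6 encodes an executioner caspase that cleaves nuclear lamins. On arrays labelled wt P2 it read 8.44, 8.58, 8.83 and 8.94, in wt at P4 it read 8.82, 8.81, 8.66 and 8.66, at P6 8.10, 7.96, 7.96 and 8.27, and at P8 7.56, 7.81, 7.41 and 7.14. On arrays labelled rd1 P2 it read 8.79, 8.64, 8.68 and 8.32, in rd1 at P4 8.84, 8.85, 8.88 and 9.17, at P6 8.30, 8.17, 8.50 and 8.28, and at P8 7.78, 7.49, 7.59 and 6.89. The wt level held to P4. In rd1 all 4 arrays of P4 lay above those labelled P2, by 0.33 on average, which was not called (limma adjusted p = 0.1475). Both genotypes then fell at each step. The fall from P2 to P8 was 1.22 in wt (SE 0.16, limma adjusted p = 2.68e-07) and 1.17 in rd1 (SE 0.16, adjusted p = 5.73e-07), 2.33-fold and 2.25-fold. It was called from P4 to P6 (-0.66 in wt and -0.62 in rd1) and from P6 to P8 (-0.59 and -0.88). The wt step from P6 to P8 lost its call without wt P8 replicate 4, and the rd1 step from P4 to P6 without rd1 P4 replicate 4.

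At P4 the 4 rd1 arrays of Casp6 lay above the 4 wt arrays, by 0.20 on average (95% interval -0.12 to 0.52, exact permutation p = 0.0286, limma adjusted p = 1.00). It was the 1 member of 14 without overlap at P4, where 3.04% of all probe sets have none. At P8 the difference was -0.04 (interval -0.36 to 0.28). St14, a membrane serine protease, had the course most like it (r = 0.955 over 32 arrays), followed by Nkain1 (r = 0.951).

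Apaf1, the scaffold of the apoptosome, was measured by probe sets 1452870_at and 1450223_at. The brighter, 1452870_at, read 8.83, 8.56, 9.05 and 8.85 on arrays labelled wt P2 and 9.11, 9.02, 8.81 and 8.83 in wt at P4, then 8.02, 8.05, 8.41 and 7.77 at P6 and 7.86, 8.03, 7.89 and 7.40 at P8. The arrays labelled rd1 P2 gave 8.84, 8.71, 8.68 and 8.94, and rd1 arrays gave 9.00, 9.02, 8.74 and 8.60 at P4, 8.67, 8.52, 8.16 and 7.98 at P6, and 7.95, 7.72, 7.54 and 7.49 at P8. The wt arrays had come down below all P4 arrays by P6, whereas the rd1 arrays of P6 were spread from just above those of P8 to the lower ones of P4. The fall from P2 to P8 was 1.02 in wt (SE 0.16, limma adjusted p = 5.64e-06), a 2.03-fold change, and 1.12 in rd1 (SE 0.16, adjusted p = 1.57e-06), 2.17-fold.

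By step, Apaf1 1452870_at fell by 0.88 from P4 to P6 in wt (adjusted p = 0.000257) and by 0.51 in rd1 (adjusted p = 0.0486), and then by 0.65 from P6 to P8 in rd1 (adjusted p = 0.0037), with a change of -0.27 in wt (adjusted p = 0.299). The rd1 step from P4 to P6 kept its call in 17 of 43 alternatives. The rd1 minus wt difference at P6 was 0.27 (interval -0.06 to 0.59, adjusted p = 0.698). The dimmer probe set, 1450223_at, ranged from 3.64 to 5.15 in wt and from 3.91 to 5.71 in rd1 at P6, partly in the background range, and its correlation with the brighter one was 0.594. It fell by 0.80 in wt from P2 to P8 (adjusted p = 0.0423, called in 33 of 42 alternatives), with -0.63 in rd1 (adjusted p = 0.124). It alone of the pair rose in wt from P6 to P8, by 0.97 (adjusted p = 0.0298). Nkain1 (r = 0.950) and Ypel1 (r = 0.943) were most like Apaf1.

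**Figure D2:**
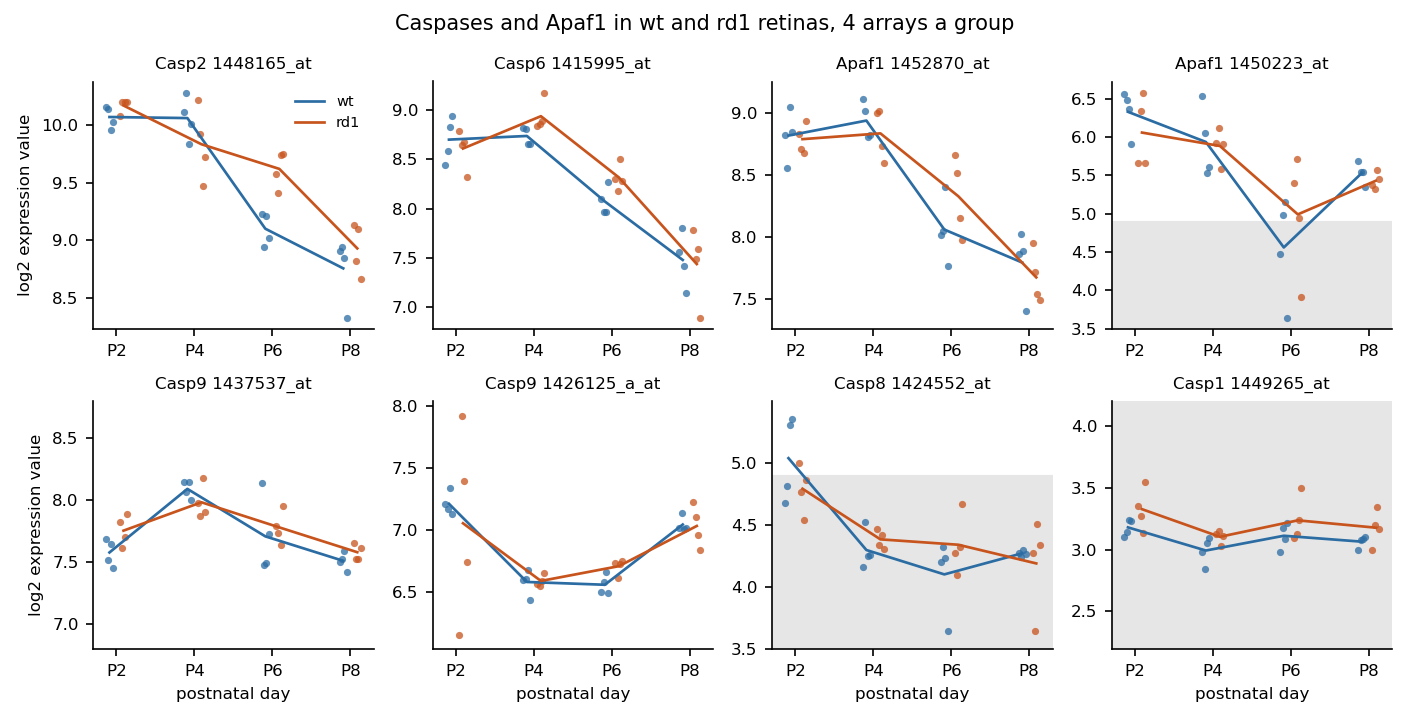
Log2 values (vertical axes) of the 8 probe sets of Casp2, Casp6, Apaf1, Casp9, Casp8 and Casp1 by postnatal day (horizontal axes), with 1 point per array, lines through the means of 4 arrays, wt in blue and rd1 in orange. The shaded band is the range of the background controls, up to 4.89. Casp2, Casp6 and Apaf1 1452870_at come down from P4 to P8, with the rd1 Casp2 arrays above the wt arrays at P6, and the probe sets of Casp9 run opposite ways to P4.

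Casp9, the initiator caspase that the apoptosome activates, was measured by a pair of probe sets that moved against each other (r = -0.535 over 32 arrays), so no single course can be given for the gene. Probe set 1437537_at read 7.69, 7.52, 7.65 and 7.45 on arrays labelled wt P2 and 8.14, 8.06, 8.14 and 8.00 in wt at P4, a rise of 0.51 (SE 0.12, limma adjusted p = 0.00268). Probe set 1426125_a_at read 7.21, 7.17, 7.34 and 7.13 on the same P2 arrays and 6.60, 6.61, 6.68 and 6.44 at P4, a fall of 0.63 (SE 0.20, adjusted p = 0.0293). In that step 4 of the 14 member probe sets changed in wt, where 16.8% of all did, the others being those of Casp8 and Xiap 1437533_at.

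By P8 both Casp9 probe sets were back near their P2 level in wt, with differences of -0.07 and -0.17 from P2. In rd1 the same steps from P2 to P4 were 0.23 (adjusted p = 0.17) for 1437537_at and -0.47 (adjusted p = 0.11) for 1426125_a_at. None of the 14 was called in rd1 from P2 to P4, where 15.5% of all probe sets were. An unadjusted p under 0.05 was found there for 6 of the 14 and for 32% of all. The arrays labelled rd1 P2 gave 6.15, 7.92, 7.40 and 6.74 for 1426125_a_at, so that replicates 1 and 4, which had the low Gapdh ratio, were the lowest. The 4 rd1 arrays of P4 lay within 6.55 to 6.66. Without replicates 1 and 4 the fall from P2 to P4 in rd1 was called for 1426125_a_at. That fit leaves only rd1 P2 replicates 2 and 3, whose Pde6b (9.18 and 9.24) went against their labels. Fmn2 (r = 0.835) and Smad4 (r = 0.824) were most like 1437537_at.

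Casp8, the initiator of the death receptor pathway, rose above the background range on 3 arrays, all of P2. It read 4.68, 4.82, 5.31 and 5.35 on arrays labelled wt P2 and 5.0, 4.77, 4.54 and 4.87 on arrays labelled rd1 P2, and from P4 on every array of both genotypes lay between 3.64 and 4.67. Its fitted change from P2 to P8 was -0.77 in wt (SE 0.17, limma adjusted p = 0.000602) and -0.60 in rd1 (SE 0.17, adjusted p = 0.00599). Since the later arrays and 5 of the 8 of P2 lay within background, these values are no measure of the true fold. The call in rd1 was lost without rd1 P8 replicate 2, and without rd1 P2 replicates 1 and 4. The second of these fits leaves only rd1 P2 replicates 2 and 3, whose Pde6b went against their labels. Most of the fall in wt came from P2 to P4 (-0.74, adjusted p = 0.00296). G3bp1 (r = 0.858) and Col9a3 (r = 0.841) were most like it.

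Casp1, which matures interleukin-1 beta in inflammasomes, stayed inside the background range on all 32 arrays, from 2.84 to 3.55. No age step was called for it. Its mean was higher in rd1 than in wt by 0.12 over the 4 ages (95% interval 0.04 to 0.21), with an adjusted p of 0.181. Over the ages together 0 of the 14 members were called, and 0.0442% of all probe sets were. An unadjusted p under 0.05 was found for 2 of the 14 and for 22.2% of all. Over the same ages the mean of 16 of 17 microglia and macrophage markers rose, from 4.80 to 5.20 on arrays labelled wt P2 to 5.63 to 5.91 in wt at P8 and 5.76 to 6.06 in rd1 at P8. The probe sets most like Casp1 were those of Krtap16-3 (r = 0.928) and A930018P22Rik (r = 0.926). With Casp1 within background, these correlations cannot show which cells it came from.

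Xiap, the X-linked inhibitor of apoptosis protein, was measured by 6 probe sets that gave several different courses. Probe set 1437533_at, the brightest, read 10.74, 10.76, 10.36 and 10.38 on arrays labelled wt P2, then 11.08, 10.92, 11.27 and 11.08 at P4, 11.24, 11.45, 11.51 and 11.49 at P6, and 11.31, 11.13, 11.10 and 11.38 at P8 in wt. It read 10.91, 10.80, 10.85 and 10.74 on arrays labelled rd1 P2, then 10.88, 10.85, 11.15 and 10.94 at P4, 11.52, 11.38, 11.21 and 11.24 at P6, and 10.88, 11.08, 10.74 and 10.66 at P8 in rd1. Both genotypes were highest at P6, and by P8 all rd1 arrays lay below those of P6, while the wt arrays of P8 and P6 overlapped.

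This probe set rose by 0.67 from P2 to P8 in wt (SE 0.11, limma adjusted p = 1.16e-05), a 1.59-fold change, and changed by 0.01 in rd1 (95% interval -0.21 to 0.24). Both changes rest on the P2 labels, which Pde6b did not follow. In rd1 the probe set rose by 0.38 from P4 to P6 (adjusted p = 0.0297) and fell by 0.50 from P6 to P8 (adjusted p = 0.00146). In wt the change from P6 to P8 was -0.19 (adjusted p = 0.27). At P8 all 4 rd1 arrays lay below all 4 wt arrays, by 0.39 (interval -0.61 to -0.17, exact permutation p = 0.0286), with a limma p of 0.00118 and an adjusted p of 0.136, so the difference was not called. The F test of variation with age gave an adjusted p of 0.385. At P2 the arrays labelled rd1 were 0.26 higher (unadjusted p = 0.0217, adjusted p = 0.481). Fyco1 (r = 0.875), an adaptor of autophagosome transport, and Snap25 (r = 0.865), a synaptic vesicle fusion protein, had the courses most like it.

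Probe sets 1421394_a_at, 1450231_a_at and 1426636_a_at shared a second course, within background on most arrays of P4 and P6 and above it at P8. At P2 they were less uniform. Probe set 1450231_a_at read 4.73, 4.86, 3.38 and 3.51 on arrays labelled wt P2 and 3.09, 4.82, 5.69 and 3.79 on arrays labelled rd1 P2, and 1421394_a_at reached 5.53 and 5.64 on arrays labelled rd1 P2 replicates 2 and 3. Probe set 1450231_a_at read 3.33, 3.51, 3.86 and 3.60 in wt at P6 and 6.90, 7.20, 6.24 and 7.81 at P8, a rise of 3.46 (SE 0.55, adjusted p = 6.01e-05). In rd1 it read 3.86, 3.29, 3.61 and 3.21 at P6 and 7.01, 6.84, 5.97 and 3.23 at P8, a rise of 2.27 (adjusted p = 0.00383). Replicate 4 of rd1 at P8, the array with the high lens genes, lay within the P6 range. This array was also the highest of its group for the endothelial markers (6.79, against 5.98 to 6.26), the pigment epithelium markers (8.19, against 7.18 to 7.24) and the Mueller glia markers (10.3, against 9.18 to 9.69). It was the highest of its group for the rod markers too (12.4, against 11.4 to 12.2). The same held for the microglia and macrophage markers (6.06, against 5.76 to 5.87). In wt at P8 all 4 arrays of this probe set were above background. Their lens mean ran from 5.39 to 9.32, so none reached the 11.5 of rd1 replicate 4. Since the P6 arrays were within background, the fitted rises are no measure of the true fold. From P2 to P8 in rd1 the change was 1.41 (adjusted p = 0.0491), and it was called in 12 of 42 alternatives.

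Probe set 1421394_a_at rose by 2.20 from P6 to P8 in wt (adjusted p = 0.000111) and by 1.80 in rd1 (adjusted p = 0.00081), and 1426636_a_at by 0.94 (adjusted p = 0.00551) and 0.86 (adjusted p = 0.00888). At P8 1421394_a_at read 7.05, 6.42, 6.93 and 7.55 in wt and 7.15, 7.12, 5.91 and 4.95 in rd1, and 1426636_a_at read 5.05, 5.86, 5.09 and 5.93 in wt and 5.71, 5.74, 5.55 and 4.62 in rd1. Replicate 4 was again the lowest rd1 array in both. The rd1 minus wt difference at P8 was -1.28 for 1450231_a_at (95% interval -2.41 to -0.15, adjusted p = 0.227) and -0.71 for 1421394_a_at (interval -1.47 to 0.04). Without rd1 P8 replicate 4 the differences of means were -0.43 and -0.27. The part of the lens genes and of the other marker genes in these values was not tested.

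The other 2 Xiap probe sets differed again. Probe set 1456088_at read 8.62, 8.24, 6.40 and 6.11 on arrays labelled wt P2 and 6.51, 8.39, 8.63 and 6.76 on arrays labelled rd1 P2, so that each group was split into a high and a low pair. The low arrays were replicates 3 and 4 of wt and replicates 1 and 4 of rd1. The Gapdh difference was -0.38 and -0.34 on that wt pair, against -1.54 and -1.57 on that rd1 pair. The high arrays, wt replicates 1 and 2 and rd1 replicates 2 and 3, were those whose Pde6b went against their labels. Probe set 1450231_a_at split the same arrays at P2. What set these arrays apart was not tested. From P4 on all arrays of 1456088_at lay between 7.87 and 9.22. This probe set rose by 1.59 from P2 to P8 in wt (adjusted p = 0.00455), with 1.01 in rd1 (adjusted p = 0.0764). Probe set 1450232_at changed little, from 4.90 to 5.67 over all arrays. It fell by 0.36 from P2 to P8 in wt (adjusted p = 0.00993) and at P8 lay higher in rd1, at 5.13, 5.23, 5.43 and 5.27, than in wt, at 4.90, 4.90, 4.98 and 5.03. That difference of 0.31 (interval 0.09 to 0.54) had a permutation p of 0.0286 and an adjusted p of 0.211.

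The array's annotation gives 1421394_a_at, 1450231_a_at and 1450232_at the same representative sequence, and 1437533_at and 1456088_at another. Within the first 3, the correlation over 32 arrays was 0.943 between 1421394_a_at and 1450231_a_at, and -0.52 and -0.47 for each of them with 1450232_at. Probe sets 1437533_at and 1456088_at correlated at 0.696. Between 1437533_at and 1450231_a_at it was 0.07. The direction of the genotype difference of Xiap at P8 therefore depends on the probe set, with 5 of the 6 lower and 1 higher in rd1, and 1426636_a_at, at -0.08, turned to 0.19 without rd1 P8 replicate 4.

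**Figure D3:**
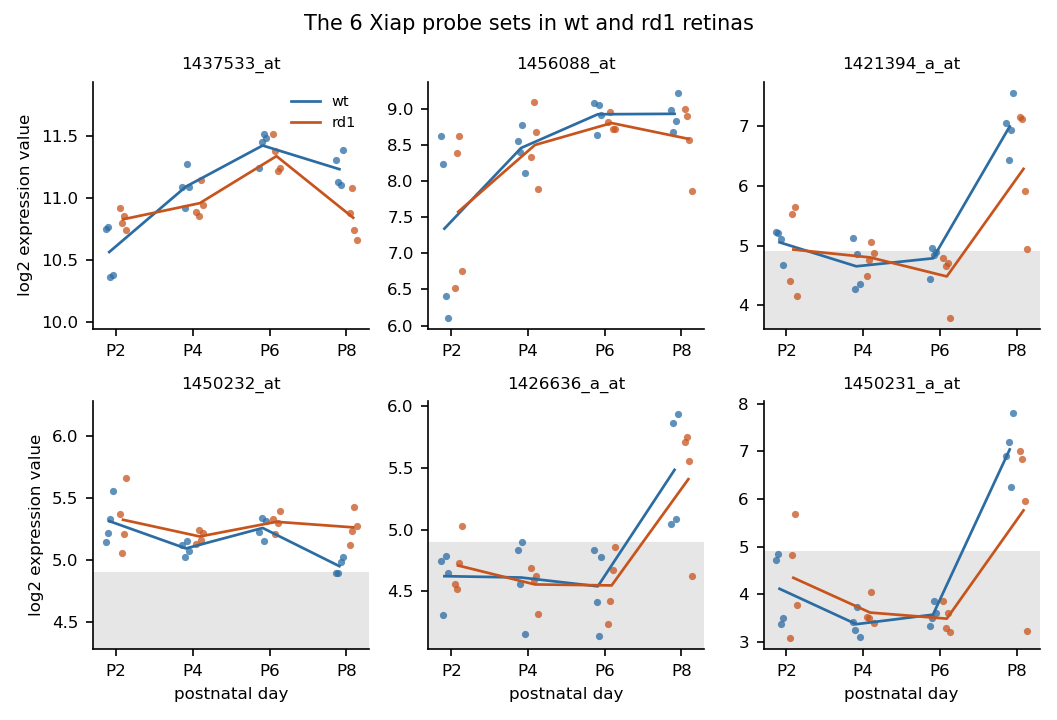
Log2 values (vertical axes) of the 6 Xiap probe sets by postnatal day (horizontal axes), with 1 point per array, lines through the means of 4 arrays, wt in blue and rd1 in orange, and the background range up to 4.89 shaded. Probe set 1437533_at is highest at P6, 1421394_a_at, 1450231_a_at and 1426636_a_at lie above the background at P8 on all arrays but rd1 replicate 4, which does so only for 1421394_a_at, at 4.95, and 1456088_at is split at P2.

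Compared to wt, no member was called in rd1 at any age by limma. Of the 14 probe sets 0 were called at P2, P4, P6 and P8, where 0.0398%, 0.00442%, 0.208% and 0.212% of all probe sets were. The number with an unadjusted p under 0.05 was 1, 0, 1 and 3, in that order, where 7.96%, 2.99%, 8.1% and 18.9% of all probe sets had one. The F test of a change with age called 0 (0.0663% of all), with 2 at an unadjusted p under 0.05 (6.64% of all), and the change from P4 to P8 in rd1 minus that in wt called 0 (0.0221% of all), with 0 at an unadjusted p under 0.05 (4.46% of all). Groups without overlap were seen for 0 members at P2 (2.76% of all) and for 2 at P8, both of Xiap (12.5% of all). With array quality weights 2 members were called at P6 (Casp2 and Apaf1 1452870_at, with 837 probe sets called in all) and 2 at P8 (Casp8 and Xiap 1450232_at, with 3506 in all).

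The intervals show which differences the arrays could still hold. For Casp6 the 95% interval at P8 was -0.36 to 0.28, for Casp9 1437537_at it was -0.17 to 0.31, and for Apaf1 1452870_at it was -0.44 to 0.21. The interval of Xiap 1450231_a_at spanned more than that of any other member, -2.41 to -0.15.

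**Figure D4:**
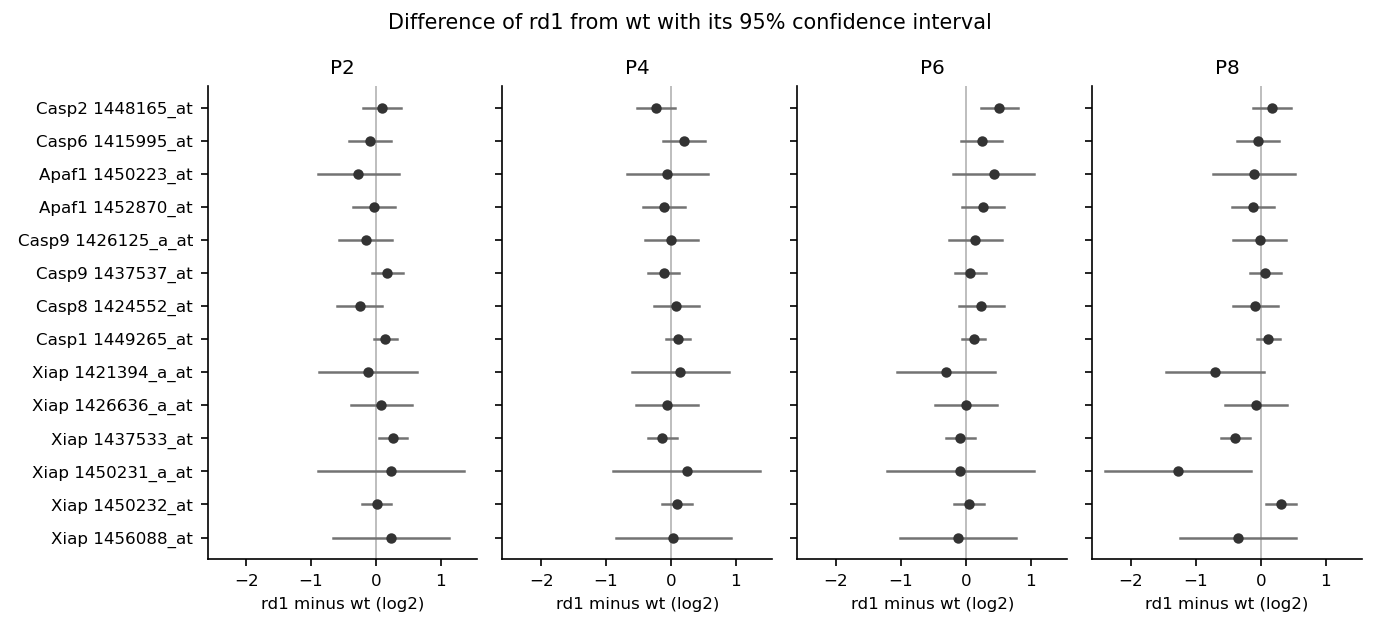
Difference of rd1 from wt (horizontal axes, log2 scale) for each of the 14 probe sets at P2, P4, P6 and P8, with points for the difference of the means of 4 arrays and bars for its 95% confidence interval from limma. The intervals of 5 differences are clear of 0, those of Casp2 at P6 (0.52), of Xiap 1437533_at at P2 (0.26) and at P8 (-0.39), of Xiap 1450231_a_at at P8 (-1.28) and of Xiap 1450232_at at P8 (0.31), and none passed the test after adjustment.

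Genes of the same pathways were read through their brightest probe sets, with lists assembled from known roles. Between genotypes 0.0398%, 0.00442%, 0.208% and 0.212% of all probe sets were called at P2, P4, P6 and P8. A count of 0 in a short list therefore says little about that list. Among partners of the apoptosome, 8 of 10 listed genes were measured, and 0 were called in rd1 compared to wt at any age. From P2 to P8 in wt, 2 rose, 1 fell and 5 were not called, where 35.6% of all probe sets were, and the median over the 8 was -0.10. Cytochrome c (Cycs) rose by 0.51 in wt (adjusted p = 0.00135) and by 0.56 in rd1, and endonuclease G (Endog) by 1.27 (adjusted p = 0.000613) and by 1.29. The mitochondrial chaperonin Hspd1 fell by 0.55 (adjusted p = 6.57e-05) and by 0.51. Of the others with the smallest p between genotypes, Hspe1 differed by 0.28 at P8 (adjusted p = 0.23), Endog by -0.61 at P6 (adjusted p = 0.587) and Apip, a gene of methionine salvage that also binds Apaf1, by 0.19 at P4 (adjusted p = 1.00).

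Of the inhibitor of apoptosis family and its partners, 10 of 12 were measured. Birc5 (survivin), which works in mitotic chromosome segregation and is also among the 21 mitotic markers, was 1.89 higher in rd1 at P6 (SE 0.40, limma adjusted p = 0.0396), with 6.97 ± 0.56 (SD over 4 arrays) against 5.09 ± 0.93. It was the only gene of the 6 pathway lists called between the genotypes at any single age, and at P6 0.208% of all probe sets were called. Of the 21 mitotic markers, 8 were called at that age. From P2 to P8 it fell from a mean of 10.7 in wt (adjusted p = 1.12e-13) and 10.8 in rd1 to 4.05 and 4.88, which are within the background range, so that no size is given. The deubiquitinase Usp11 fell by 0.45 in wt (adjusted p = 0.0422), and the other 8 of the list were not called, where 35.6% of all probe sets were. Birc2 differed by 0.24 at P6 (adjusted p = 0.606). Naip2 (0.19 at P8, adjusted p = 0.229) and Naip5 (-0.17 from P2 to P8 in wt, adjusted p = 0.109) were within background.

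Of the death receptor genes and the adaptors of Casp2, 16 of 17 were measured, with 0 called between genotypes (at most 0.212% of all probe sets at any age). From P2 to P8 in wt 1 went up and 2 down, where 35.6% of all probe sets were called. Cflar, which encodes the inhibitor of Casp8 activation c-FLIP, rose by 1.10 in wt (adjusted p = 7.97e-05) and by 0.86 in rd1 (adjusted p = 0.00139). The receptor Fas fell by 0.49 in wt (adjusted p = 0.0124) and Pidd1, the PIDDosome scaffold that activates Casp2, by 0.47 (adjusted p = 0.0128), with -0.14 and -0.17 in rd1, which were not called. Between genotypes Daxx was -0.44 at P6 (adjusted p = 0.161), Traf2 -0.45 at P6 (adjusted p = 0.479) and Fas 0.41 at P8 (adjusted p = 0.217), where Fas was within background in both genotypes, at 4.43 in wt and 4.84 in rd1.

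Of the inflammasome genes around Casp1, 7 of 12 were measured and 0 were called between genotypes (at most 0.212% of all probe sets at any age). The DNA sensor Aim2 fell by 0.78 from P2 to P8 in wt (adjusted p = 0.0162), the only call of the list there, where 35.6% of all probe sets were called. In rd1 the change of Aim2 was -0.18 (adjusted p = 0.671). The cytokine Il18 changed by 0.40 in wt (adjusted p = 0.0704) and rose by 0.55 in rd1 (adjusted p = 0.0119), and Nlrp3 changed by -0.08 in wt (adjusted p = 0.488). At P8 Aim2 was 0.68 (adjusted p = 0.217), Mefv 0.37 (adjusted p = 0.212) and Il1r1 0.22 (adjusted p = 0.244) above wt in rd1. The means of Mefv (3.76 in wt and 4.13 in rd1), Il1r1 (4.52 and 4.73) and Nlrp3 (4.43 at P2 and 4.34 at P8 in wt) were within background. For other caspases, 3 of 5 were measured and lay within background, and 0 were called between genotypes (at most 0.212% of all at any age). Casp4 was 0.14 higher in rd1 at P8 (adjusted p = 0.217), Casp14 0.09 higher at P8 (adjusted p = 0.588) and Casp12 -0.11 at P6 (adjusted p = 0.832).

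Proteins that caspases cleave in dying cells made up the last list, of which 14 of 15 were measured. From P2 to P8 in wt 1 rose and 5 fell, where 35.6% of all probe sets were called. The median over the list was -0.35, against -0.06 over all probe sets. The lamin gene Lmnb1 fell by 1.99 in wt (adjusted p = 1.47e-07) and by 2.24 in rd1, the same direction as Casp6. Lmnb2 fell too (adjusted p = 1.16e-07 in wt), from 7.08 in wt and 6.93 in rd1 to P8 means that were within background in both. Acin1, the chromatin condensation factor acinus, fell by 0.88 in wt (adjusted p = 5.23e-06) and by 0.35 in rd1 (adjusted p = 0.0461). Between genotypes 0 were called (at most 0.212% of all probe sets at any age). The values were 0.47 for Lmnb1 at P6 (adjusted p = 0.646), -0.25 for Dffa, the inhibitor of the caspase-activated DNase, at P8 (adjusted p = 0.259), and -0.33 for the DNA repair factor Xrcc4 at P8 (adjusted p = 0.413).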

How the data were processed

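Total RNA of pooled retinas had been hybridized to Affymetrix MOE430A arrays. The deposited log2 values were made by the authors with Robust Multichip Average, which corrects background, quantile-normalizes and summarizes probes. A version of it was not given. A second table, of the authors' own fold changes and p-values, was not used. Probe sets took gene symbols from the platform annotation (20380 with 1 symbol, 691 with several, 1555 not listed), and 64 control probe sets were left out. The members and gene lists were chosen with earlier results of these data known.

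In R 4.3.3, limma 3.58.1 estimated 1 mean for each group from the 32 arrays together (24 residual degrees of freedom, intensity trend, two-sided moderated tests). Benjamini-Hochberg adjustment ran over 22626 probe sets within each comparison, with a threshold of 0.05. The code was tested on simulated data. The exact permutation test ran over 70 assignments of 4 arrays against 4. Comparisons share arrays, since neighbouring age steps and the genotype differences use the same groups. All member probe sets were named. Of each pathway list, the 3 genes with the smallest p between genotypes at P4, P6 or P8 and the 3 with the smallest p from P2 to P8 in wt were named, each by its brightest probe set. Each member was given the 2 probe sets of other genes with the highest Pearson correlation over the 32 arrays. Labels do not say whether pools came from separate litters, so p-values measure the spread between pools.

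Alternatives were robust moderation, a fit with no trend, weights for array quality, a block for replicate number, centring of medians, another round of quantile normalization, omission of the dimmest 30% of probe sets, fits of only the groups compared, limma's treat at a fold of 1.5, omission of rd1 P2 replicates 1 and 4, of all 8 P2 arrays and of each array, and a gene level averaged over its probe sets. The number of arrays limits the precision.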

Additional observations from a re-analysis of the deposited data

Results flagged for a closer look

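Single arrays stood apart from the other 3 of their group in 5 of 112 member groups tested, by a gap to the nearest array relative to the group's whole range above Dixon's 95% critical value, where chance gives about 1 in 20. For Casp2, wt P8 replicate 4 was low at 8.33 (next 8.85), and the array labelled rd1 P2 replicate 1 was low at 10.08 (next 10.20). For Casp6, rd1 P4 replicate 4 was high at 9.17 (next 8.88). For Casp9 1426125_a_at, wt P8 replicate 2 was high at 7.13 (next 7.02). For Xiap 1421394_a_at, rd1 P6 replicate 4 was low at 3.79 (next 4.66), within the background range.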

How the results depend on the processing

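Under 11 alternatives and the removal of each of 32 arrays, the members called between genotypes stayed at 0 of 14, except with array quality weights, which called 2 at P6, 2 at P8 and 1 for the change with age. Calls over all probe sets grew under the weights too, from 47 to 837, from 48 to 3506 and from 15 to 490. The Casp2 difference at P6 was smaller with the weights (0.45 against 0.52), as was that of Xiap 1450232_at at P8 (0.30 against 0.31), and both passed the threshold. The weights also gave 8 from P6 to P8 in wt (5 without them, with 6405 and 3524 of all probe sets) and 4 from P2 to P4 in rd1 (0 without them, with 6236 and 3516 of all). The test against a fold of 1.5 called 4 from P2 to P8 in wt, 3 in rd1, 2 from P6 to P8 in wt, and 0 from P2 to P4 and P4 to P6 in wt and from P4 to P6 and P6 to P8 in rd1, and its calls over all probe sets from P2 to P8 were 2163 in wt and 2046 in rd1. Fitting only the groups compared gave 4 from P2 to P8 (5534 of all) and 1 from P4 to P6 (957 of all) in rd1. Leaving out rd1 P2 replicates 1 and 4 gave 1 from P2 to P4 in rd1. The rd1 P2 arrays left in that fit, replicates 2 and 3, were those whose Pde6b went against their labels.

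Replicate numbers did not pair the samples: 7 of 16 correlations of same-numbered arrays were over 0.1 (-0.42 to 0.61). The replicate block gave 1 call from P2 to P4 in rd1 (0 without the block) and moved no other count by over 1.5 times.

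Leaving out each array gave 10 to 11 calls from P2 to P8, 3 to 5 from P2 to P4, 4 to 6 from P4 to P6 and 4 to 7 from P6 to P8 in wt. In rd1 the ranges were 4 to 8 from P2 to P8 (4 without rd1 P8 replicate 2), 0 to 2 from P2 to P4 (1 without rd1 P2 replicate 1, rd1 P4 replicate 1 or rd1 P6 replicate 4, and 2 without rd1 P2 replicate 3), 1 to 4 from P4 to P6 (1 without rd1 P4 replicate 1, 2 or 4) and 7 to 7 from P6 to P8. The mean over all Xiap probe sets rose by 0.74 from P2 to P8 in rd1 (adjusted p = 0.0139), where the brightest changed by 0.01 (adjusted p = 0.954); the means for Apaf1 and Casp9 changed no call. Signal near background limits Casp1, Casp8 and the dim Xiap probe sets.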
